A study of Mus musculus with 12 samples.

Results

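The genes described here are the nuclear-encoded subunits of oxidative phosphorylation, measured by RNA sequencing in mouse primary cortical neurons treated with erinacine S, which the fungus Hericium erinaceus makes in its mycelium. A member is a protein-coding gene whose symbol starts with Nduf and a subunit letter and number, with Uqcr, with Cox4 to Cox8, or with Atp5, or is Sdha, Sdhb, Sdhc or Sdhd. The rule found 84 members among 51912 gene rows: 37 carried a complex I name, 4 a complex II name, 8 a complex III name, 18 a complex IV name and 17 a complex V name. Values are in TPM, a unit that scales a gene's reads by its length and by the total of the library. Of the 84 members, 78 reached a mean of at least 1 TPM over the 12 libraries and were tested.

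The neurons came from the cortex of C57BL/6J embryos at E17.5, late in gestation. After 3 h in plating medium and 1 h in maintenance medium, they received erinacine S at 1 µg/mL, or its solvent DMSO alone as the control. RNA was taken after 16 h or 48 h, which gives 4 groups of 3 libraries: DMSO at 16 h, erinacine S at 16 h, DMSO at 48 h and erinacine S at 48 h. The labels name no transgene or deletion for any group, and all groups share the strain, the age and the plating and maintenance media. Below, "medium" and "media" stand for the treatment, DMSO or erinacine S, given in that same maintenance medium. The labels call the replicates independent repeats but name no litter or dish, so the p-values rest only on how these libraries vary, and part of that variation may be technical.

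A library held 15219 to 15789 genes at 1 TPM or more, and the number of reads behind the values is unknown. Neuron markers were abundant, with a summed level over 12 genes of 3844 to 6165 TPM. The labels name neurons, and markers of other cells were present at lower levels: 257 to 812 TPM for 9 radial glia genes, 49.3 to 132 TPM for 8 astrocyte genes and 1.60 to 49.4 TPM for 9 microglia genes. Within the erinacine S 48 h group, replicate 1 stood apart: its correlation with its replicates over all tested genes was 0.981 and 0.980, against 0.995 between the other two. That library also had the lowest summed TPM of the 13 mitochondrially encoded subunits (48140 against 67868 and 67537 in its replicates). Because the samples are bulk RNA, fewer cells of a type and less RNA per cell cannot be told apart.

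Oxidative phosphorylation takes electrons from NADH at complex I and from succinate at complex II, passes them through ubiquinone to complex III, through cytochrome c to complex IV, and uses the proton gradient that complexes I, III and IV build to make ATP at complex V. Most subunits are encoded in the nucleus and imported; the rest are encoded by mitochondrial DNA, except in complex II, which is nuclear throughout. Neurons depend on this pathway for the ion pumping and vesicle cycling of synapses, and several subunits exist as isoforms used in different tissues.

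The subunits were among the more abundant messages in these neurons. The 78 tested members had a median of 125 TPM, against 20.97 TPM over all 15623 genes tested, and 50 of them averaged at least 100 TPM, a level reached by 13.4% of tested genes. Summed over all 84 members the level lay between 11823 and 14550 TPM, 1.18% to 1.45% of all TPM, while the 13 mitochondrially encoded subunits took 4.81% to 7.30%. By complex, the share was 0.339% to 0.429% for complex I, 0.0498% to 0.0578% for complex II, 0.0994% to 0.127% for complex III, 0.258% to 0.350% for complex IV and 0.431% to 0.518% for complex V. The large number of complex I subunits thus summed to less than the smaller set of complex V genes.

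**Figure D1:**
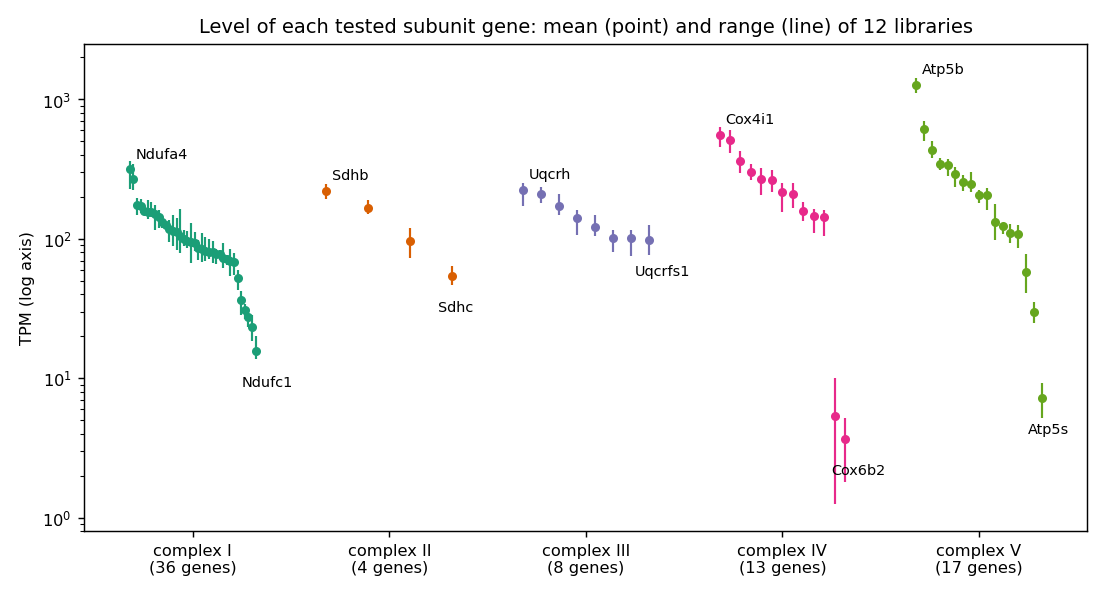
Level of each of the 78 tested members, by complex, in TPM on a log axis; points are means of 12 libraries and lines run from the lowest to the highest library. Atp5b stands above 1000 TPM in every library, and Cox6a2 and Cox6b2 lie far below the other complex IV genes.

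Levels of subunits that sit together in the same enzyme differed widely. The highest was Atp5b, the catalytic beta subunit of ATP synthase, at 1104 to 1418 TPM, followed by Atp5a1, the alpha subunit that pairs with it, at 508 to 705 TPM. In complex IV, Cox4i1, a subunit through which ATP inhibits the enzyme, was highest at 453 to 631 TPM. In complex I the highest was Ndufa4, at 229 to 365 TPM; its protein, although named for complex I, is now regarded as a subunit of complex IV.

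The lowest tested member of complex I was Ndufc1, an accessory subunit of the membrane arm, at 13.8 to 20.1 TPM. Ndufb2, Ndufa11 and Ndufb4, also accessory subunits, had means of 23.5, 27.6 and 30.7 TPM. In complex II, Sdhb, the iron-sulfur subunit, led with 194 to 246 TPM and Sdhc, a membrane anchor, was lowest with 46.9 to 64.2 TPM. In complex III, levels were closer together, from a mean of 223 TPM for Uqcrh, the hinge protein that helps cytochrome c dock, to 98.8 TPM for Uqcrfs1, the Rieske iron-sulfur protein. In complex V the lowest was Atp5s, with 5.16 to 9.20 TPM, whose protein is not a structural part of the enzyme. A low message level of a subunit does not state the level of its protein.

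Where a subunit has isoforms, the general form was the abundant message and forms known from muscle or testis were far lower. Most of these had a mean under 1 TPM, while Cox6a2 and Cox6b2 had means of 5.42 and 3.71 TPM. For subunit 4 of complex IV, Cox4i1 averaged 559 TPM, while Cox4i2, the form of lung and of low oxygen, was at the lowest value of the table, 0.0001 TPM, in 11 of 12 libraries. Cox8a was at 299 to 428 TPM, and Cox8b (heart and muscle) and Cox8c (testis) were listed at 0.0001 TPM in all 12 libraries. Cox7a2 was at 110 to 164 TPM, against 0.0001 to 1.69 TPM for Cox7a1, the heart and muscle form. Cox7b was at 105 to 160 TPM and Cox7b2, the testis form, at 0.0001 to 0.165 TPM.

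The muscle form Cox6a2 was detected in all libraries, at 1.25 to 10.1 TPM, beside 413 to 605 TPM for Cox6a1. A list of 7 striated muscle genes summed to 3.73 to 5.94 TPM, and 5 of the 7 had a mean under 1 TPM. In erinacine S at 48 h that sum was 5.57, 3.82 and 3.73 TPM in replicates 1, 2 and 3. Replicate 1 of that group also held the highest Cox6a2 value. The source of the Cox6a2 message was not tested. Cox6b2, the testis form, was at 1.79 to 5.22 TPM beside 206 to 321 TPM for Cox6b1. The 3 genes Atp5g1, Atp5g2 and Atp5g3 encode the same mature c-ring protein of ATP synthase with different import signals; their means were 57.5, 124 and 290 TPM. Ndufa4l2, a gene induced in hypoxia, was at 0.0001 to 0.727 TPM.

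The 6 members below the filter were thus Ndufa4l2, Cox4i2, Cox7a1, Cox7b2, Cox8b and Cox8c, all of them alternative isoforms. Ndufa4l2 was at 0.727, 0.714 and 0.691 TPM in DMSO at 16 h, at 0.395, 0.387 and 0.268 TPM in erinacine S at 16 h, at 0.0001, 0.128 and 0.0001 TPM in DMSO at 48 h, and at 0.359, 0.615 and 0.0001 TPM in erinacine S at 48 h. The 16 h DMSO values lay above those of every other group, at a level that the filter kept out of the main test. In a fit without the filter, Ndufa4l2 was called as a fall with time in DMSO. The rule also leaves out 6 processed pseudogenes whose names fit the pattern, of which Atp5k-ps2 had 6.50 to 12.6 TPM; where the authors' read assignment could split reads between a gene and such a copy, the level of the gene is uncertain.

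Promoter sequence is shared by subsets of these genes. RefSeq promoters (assembly GRCm38.p6, 250 bases before to 50 bases after each start) were matched for 69 of the 84 members, giving 76 promoters among 32851. The 3 words looked for, each of 8 letters, were searched on both strands; none contains another, and a promoter may hold more than 1. They were GCGCATGC, the core bound by NRF1, CCGGAAGT, the core bound by GABPA and other ETS proteins, and AAGATGGC, the core bound by YY1, all factors known as regulators of respiratory genes. The NRF1 word was in 10 of 76 member promoters (13.2%) and in 2.71% of all promoters. The YY1 word was in 12 of 76 (15.8%) and in 2.75% of all, and the GABPA word in 5 of 76 (6.58%) and in 3.89% of all. At least 1 of the 3 words was in 34.2% of member promoters and 8.83% of all promoters; base composition was not matched between the sets, and a word is not a measured binding site.

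Windows around a word are shown for the members in which the window lies outside every gene of the deposited table, as examples of how the words sit near the start; capitals mark the word, as it reads on the gene's strand.
Ndufa6, chr15:82354337-82354404, minus strand, NRF1 word on the opposite strand, bases -83 to -76 from the start: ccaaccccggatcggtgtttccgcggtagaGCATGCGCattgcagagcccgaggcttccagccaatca
Uqcr11, chr10:80406850-80406917, minus strand, GABPA word on the same strand, bases -66 to -59: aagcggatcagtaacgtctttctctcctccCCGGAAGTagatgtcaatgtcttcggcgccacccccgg
Uqcrh, chr4:116075072-116075111, minus strand, GABPA word on the opposite strand, bases -11 to -4: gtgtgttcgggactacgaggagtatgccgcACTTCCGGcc
Ndufa6 is an accessory subunit of complex I, and Uqcr11 and Uqcrh are small subunits of complex III. None of the 3 passed the test in any comparison described next, so the words are common to members that changed and members that did not: of the 14 matched members that passed the test with time, 5 (35.7%) held a word, and of the other 55 matched members, 20 (36.4%) did.

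Before the comparisons, a pattern among replicates needs stating. In the DMSO 16 h group, replicate 3 had the highest value of the 3 libraries for 61 of 78 members and replicate 2 the lowest for 59, with median deviations from the group mean of 0.17 and -0.17 on the log2(TPM + 1) scale and -0.01 for replicate 1. The erinacine S 16 h libraries deviated by -0.07, -0.01 and 0.09, again with replicate 3 highest, for 49 members. At 48 h the medians of the 6 libraries lay between -0.03 and 0.03. The subunits thus moved together between 16 h libraries of the same group, and the median SD over members was 0.19 in DMSO at 16 h, 0.11 in erinacine S at 16 h, 0.06 in DMSO at 48 h and 0.07 in erinacine S at 48 h.

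**Figure D2:**
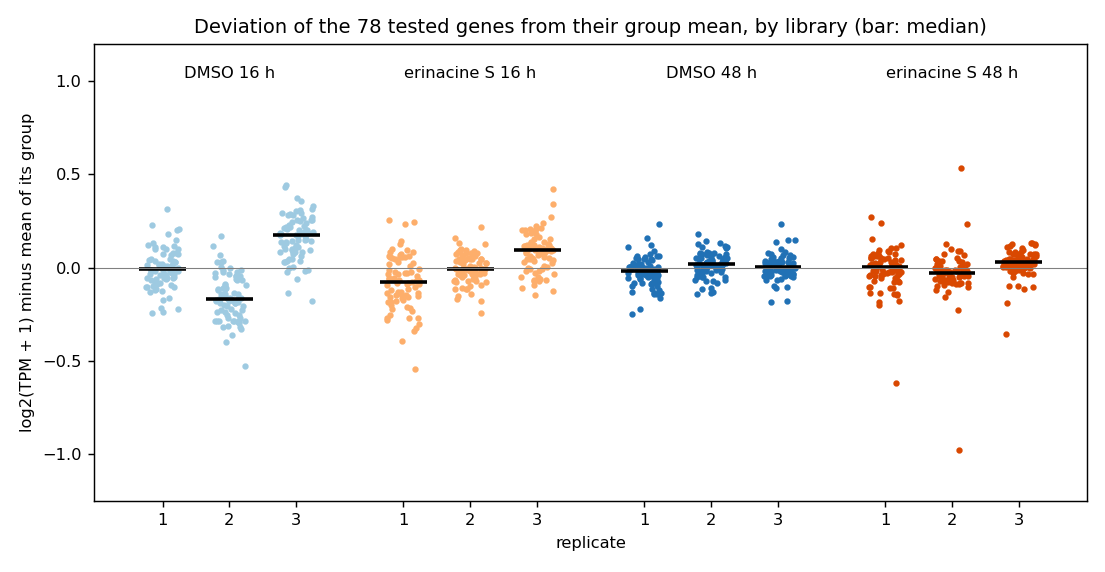
Deviation of each of the 78 tested members from the mean of its group, on the log2(TPM + 1) scale, for each library; bars are medians. The bars of DMSO 16 h replicates 2 and 3 sit at -0.17 and 0.17, and those of the 48 h libraries between -0.03 and 0.03.

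The same order of libraries was present in genes with no part in respiration. For 77 genes of cytosolic ribosomal proteins, DMSO 16 h replicate 3 was highest for 58 and replicate 2 lowest for 62. Among 1004 tested protein-coding genes with transcripts of up to 1000 nucleotides, replicate 3 exceeded replicate 2 by a median of 0.21, and among 3357 genes with transcripts over 4000 nucleotides it fell short of it, with a median of -0.17. Of the tested members, 51 have transcripts of up to 1000 nucleotides and none over 4000. Transcript length moved with the replicate pattern; its part in the results was not tested.

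From 16 h to 48 h in DMSO, 15 of the 78 tested members rose and none fell. The largest rises were those of Uqcrfs1 (0.56), Atp5g1 (0.53), Ndufv3 (0.51), Cox6a1 (0.41) and Sdhd (0.39) on the log2(TPM + 1) scale, in subunits of all 5 complexes. The share of members called higher (19.2%) was close to that of all tested genes (16.1%), a share near the background. None of the members was called lower, against 16.6% of all tested genes. The median change over the members was 0.09 on the log2(TPM + 1) scale and -0.03 over all tested genes, and 52 of the 78 members had a positive value. The size of that median rested on single 16 h libraries: without DMSO 16 h replicate 2 it was 0.011, with 41 members positive, and without replicate 3 it was 0.18, with 63 positive. Tests are limma's, with Benjamini-Hochberg adjustment over all 15623 genes tested and a threshold of 0.05.

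In erinacine S, 8 of 78 members rose from 16 h to 48 h and none fell. That is 10.3% called higher, against 15.1% of all tested genes, and 0 called lower, against 15.5%. Ndufa8, Ndufv3, Sdhd, Uqcrfs1 and Cox6c were called in both media, and 18 members in at least 1. In a fit with the replicate number as a block within each time, 19 members rose in DMSO, the 15 among them. In erinacine S 12 rose, the 8 among them, and 2 fell, Atp5f1 and Ndufa12. Over all 15623 genes, that fit called 2618 higher and 2742 lower in DMSO, and 2520 and 2625 in erinacine S. The number of calls also depended on single libraries: in DMSO it was 24 without the 16 h replicate 3 and 9 without the 48 h replicate 1. Without DMSO 16 h replicate 2, 10 rose and 2 fell, Ndufc1 and Atp5j2. In erinacine S it was 2 without the 16 h replicate 2, 5 without the 48 h replicate 1 (4 rises and a fall of Cox6a2), and 3 without either the 48 h replicate 2 or the 48 h replicate 3. Without erinacine S 16 h replicate 1, 5 rose and 5 fell (Ndufa12, Sdha, Uqcrb, Uqcrc2 and Atp5f1). That fit called 2393 genes higher and 2493 lower in erinacine S. Over all 15623 genes, the fits that left out a library called 3401 to 4585 in DMSO and 3110 to 4886 in erinacine S.

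**Figure D3:**
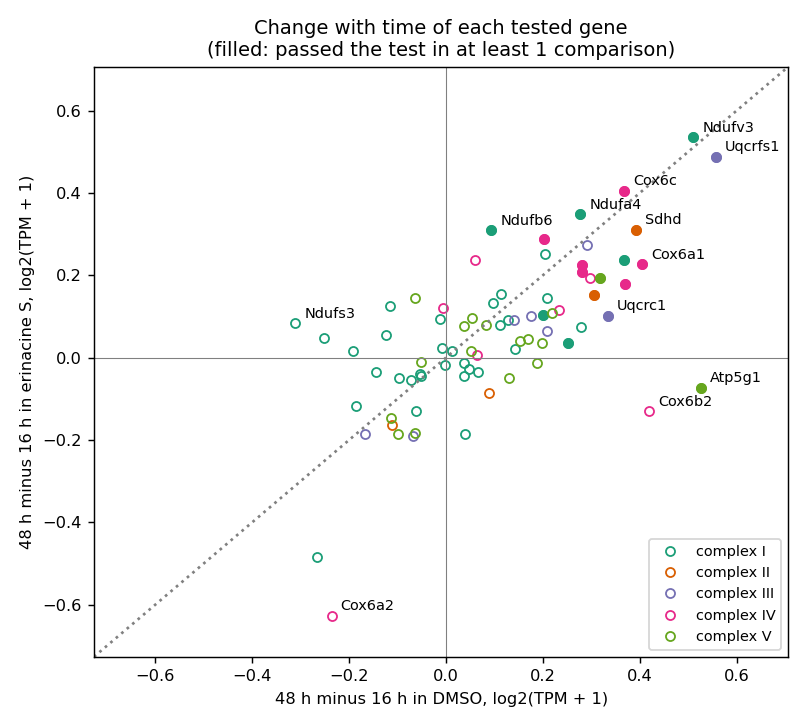
Change from 16 h to 48 h of each of the 78 tested members, on the log2(TPM + 1) scale, in DMSO (horizontal axis) and in erinacine S (vertical axis); filled points passed the test in at least 1 of the 2 and the dotted line marks equal change. Uqcrfs1 and Ndufv3 lie farthest up along the line, and Atp5g1 rises in DMSO at 0.53 with -0.07 in erinacine S.

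Complex I, where electrons of NADH enter, had a smaller share of rises than all tested genes, 16.1% in DMSO and 15.1% in erinacine S. In each medium 4 of its 36 tested members were called higher (11.1%). The clearest was Ndufv3 (ENSMUSG00000024038, chromosome 17, 31520115 to 31531326, coordinates as deposited, on GRCm38.p5 according to the submitters' processing notes), a small accessory subunit of the NADH-binding module. Ndufv3 was at 79.1, 67.8 and 78.2 TPM in DMSO at 16 h and at 104, 114 and 104 TPM at 48 h; in erinacine S it was at 78.4, 78.5 and 84.3 TPM and then at 130, 105 and 117 TPM. All 48 h libraries were above all 16 h libraries in both media. The change was 0.51 (SE 0.09, adjusted p = 0.00119) in DMSO and 0.54 (SE 0.09, adjusted p = 0.00104) in erinacine S.

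The other complex I rises were smaller. Ndufa8, an accessory subunit of the membrane arm, was at 94.7 to 113 TPM in DMSO at 16 h and at 128 to 138 TPM at 48 h, a change of 0.37 (SE 0.07, adjusted p = 0.00287), and rose by 0.24 in erinacine S (SE 0.07, adjusted p = 0.0282). Ndufb7 (0.25) and Ndufb8 (0.20), also of the membrane arm, passed in DMSO. In erinacine S, Ndufa4 (0.35) and Ndufb6 (0.31) passed. The 7 nuclear-encoded core subunits of complex I, which carry its flavin and iron-sulfur centres, did not pass in either medium, with medians of -0.0012 and 0.016. Among them the most negative value in DMSO was that of Ndufs3, -0.31 (adjusted p = 0.11). Ndufa12, chosen after its values were seen, had the most negative value of complex I in erinacine S, -0.48, which did not pass (adjusted p = 0.0957).

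In complex II, which passes electrons from succinate to ubiquinone, the membrane anchors changed and the catalytic subunits were not called. Sdhd, an anchor (ENSMUSG00000000171, chromosome 9, 50596357 to 50603812), was at 92.3, 73.4 and 90.1 TPM in DMSO at 16 h and at 103, 121 and 112 TPM at 48 h; in erinacine S it was at 80.0, 83.6 and 89.2 TPM and then at 110, 97.9 and 107 TPM. The 48 h libraries were above the 16 h libraries in both media, with changes of 0.39 (adjusted p = 0.00767) and 0.31 (adjusted p = 0.0245). Sdhc, the other anchor, rose by 0.31 in DMSO (SE 0.07, adjusted p = 0.00473). Sdha and Sdhb, the flavin and iron-sulfur subunits, did not pass in either medium.

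In complex III, which moves electrons from ubiquinol to cytochrome c, Uqcrfs1 had the lowest adjusted p of all members in both media. Uqcrfs1 (ENSMUSG00000038462, chromosome 13, 30540308 to 30545362) was at 90.2, 76.8 and 83.5 TPM in DMSO at 16 h and at 120, 123 and 126 TPM at 48 h; in erinacine S it was at 81.5, 76.1 and 77.6 TPM and then at 112, 105 and 114 TPM. No 48 h library overlapped a 16 h library. The rise was 0.56 (SE 0.07, adjusted p = 0.000142) in DMSO and 0.49 (SE 0.07, adjusted p = 0.000372) in erinacine S, and it passed in every alternative fit that was run.

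Uqcrc1 (ENSMUSG00000025651, chromosome 9, 108936633 to 108949623), a core subunit of complex III related to mitochondrial processing peptidases, rose with time in DMSO. Its values were 117, 113 and 112 TPM at 16 h and 144, 139 and 149 TPM at 48 h, a change of 0.34 (SE 0.06, adjusted p = 0.00172). In erinacine S it was at 119, 104 and 112 TPM and then at 124, 116 and 120 TPM, a change of 0.10 that did not pass (adjusted p = 0.224). The difference between these changes is tested further on.

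Complex IV, which reduces oxygen, had 5 of 13 tested members called in DMSO: Cox4i1, Cox5a, Cox6a1, Cox6c and Cox8a. That was 38.5%, and in erinacine S it was 15.4%, against 16.1% and 15.1% of all tested genes called higher. Cox6a1 was at 445, 439 and 442 TPM at 16 h and at 605, 575 and 578 TPM at 48 h in DMSO, so the 48 h libraries were all above the 16 h ones; the change was 0.41 (SE 0.09, adjusted p = 0.00515). In erinacine S at 16 h it was at 553, 413 and 444 TPM, and at 48 h at 557, 547 and 533 TPM, a value of 0.23 that did not pass (adjusted p = 0.0737); without erinacine S 16 h replicate 1 it was 0.35 and passed. Cox8a rose by 0.37 in DMSO (adjusted p = 0.0043), and Cox6c by 0.37 (adjusted p = 0.0373). Cox5a and Cox4i1 each rose by 0.28. In erinacine S, Cox6c (0.41, adjusted p = 0.0255) and Cox7a2 (0.29, adjusted p = 0.0463) passed. The subunits encoded by mitochondrial DNA that these surround are described below.

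In complex V, the ATP synthase, Atp5a1 and Atp5g1 rose in DMSO and none of the 17 members passed in erinacine S. The DMSO rises were 11.8% of the complex, against 16.1% of all tested genes. Atp5a1 was at 522, 549 and 617 TPM at 16 h and at 705, 705 and 689 TPM at 48 h in DMSO, a change of 0.32 (SE 0.08, adjusted p = 0.0085). Atp5g1 (ENSMUSG00000006057, chromosome 11, 96068852 to 96075670) was at 61.6, 41.1 and 47.2 TPM and then at 74.7, 77.4 and 62.8 TPM, a change of 0.53 (SE 0.16, adjusted p = 0.025). In erinacine S, Atp5g1 was at 54.1, 46.4 and 66.9 TPM at 16 h and at 57.2, 55.0 and 45.8 TPM at 48 h, and the groups overlapped. The other c-ring genes, Atp5g2 and Atp5g3, had values of -0.05 and 0.05 in DMSO and did not pass. The call of Atp5g1 was lost in 4 of the fits that left out a library, with an adjusted p of up to 0.0897, while 9 of the 15 DMSO calls held in all 6 such fits: Ndufa8, Ndufv3, Sdhc, Sdhd, Uqcrc1, Uqcrfs1, Cox6a1, Cox8a and Atp5a1. In erinacine S, 2 of the 8 did, Ndufv3 and Uqcrfs1.

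**Figure D4:**
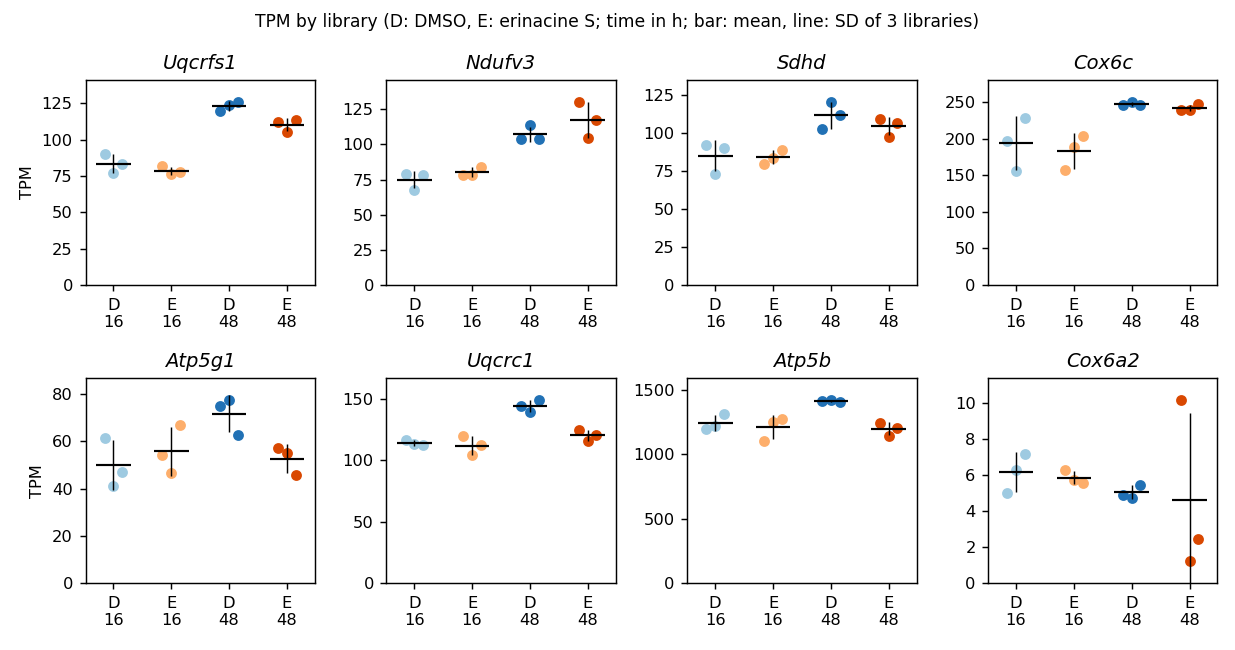
TPM of 8 members in the 12 libraries, by treatment (D for DMSO, E for erinacine S) and time. Bars are group means and lines the SD of 3 libraries. Each axis starts at 0, where the SD line of Cox6a2 in erinacine S at 48 h ends. Uqcrfs1 and Ndufv3 separate 16 h from 48 h in both media, Uqcrc1 and Atp5b are higher in DMSO at 48 h than in erinacine S at 48 h, and the 3 erinacine S 48 h values of Cox6a2 spread from 1.25 to 10.1 TPM.

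Calls with time differed by transcript length in all protein-coding genes, and the counts of the members are given beside those of their class. Of the 1004 tested protein-coding genes with transcripts of up to 1000 nucleotides, 7.07% rose and 22.1% fell in DMSO, with a median of -0.12. Of the 51 members in that class, 8 rose (15.7%) and none fell, with a median of 0.09. In erinacine S, 7.17% of that class rose and 20.0% fell, and 11.8% of its members rose. Of the 21 members of 1000 to 2000 nucleotides, 23.8% rose in DMSO and 9.52% in erinacine S, against 13.2% and 12.5% of their class. Of the 6 members of 2000 to 4000 nucleotides, 33.3% and 0% rose, against 18.6% and 17.2%. Of all genes over 4000 nucleotides, 27.0% rose in DMSO. These are counts; no test compared the members with their class.

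Neuron markers moved with time beside the subunits. In DMSO 5 of 12 rose (41.7%) and 1 fell (8.33%), and in erinacine S 6 rose (50%) and none fell. Of all tested genes, 16.1% were called higher and 16.6% lower in DMSO, and 15.1% and 15.5% in erinacine S. The summed neuron markers were 3844 to 4560 TPM in DMSO at 16 h and 5680 to 6021 TPM at 48 h. Oligodendrocyte lineage markers also rose, with 6 of 7 tested genes in DMSO and 3 of 7 in erinacine S. Of 6 microglia genes, 1 fell in DMSO and 4 in erinacine S, and none rose. Of 9 radial glia genes, 2 rose and 1 fell in DMSO, and 3 fell in erinacine S. Of 6 astrocyte genes, 1 rose in DMSO and none passed in erinacine S. Of 8 dividing-cell genes, none passed in DMSO and 2 fell in erinacine S. Of 4 erythroid genes, 2 fell in DMSO and 1 in erinacine S. The part of the cell mixture in the subunit values was not tested.

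At 48 h, no member differed between erinacine S and DMSO by limma's test. In that comparison 21 of all 15623 genes passed (0.134%), and 8 members (10.3%) had an unadjusted p under 0.05, a share near that of all tested genes (1400 genes, 8.96%). All 8 were lower in erinacine S. Of the 78 tested members, 54 were negative (69.2%), against 47.5% of all tested genes, and the median was -0.06 against 0.01. In 19 members all 3 erinacine S libraries lay below all 3 DMSO libraries (24.4%, against 8.74% of all tested genes), and in 4 all lay above (5.13%, against 10.5%). The 4 were Ndufa3, Ndufb9, Ndufs3 and Cox7a2. With library weights, 13 members were called, 11 lower and 2 higher, in a fit that called 1599 genes in all. The weights of erinacine S 48 h replicates 1, 2 and 3 were 0.195, 5.58 and 1.10, so that fit leaned mostly on replicate 2. Replicate 2 had the lowest value of its group for 40 of the 78 members. Without erinacine S 48 h replicate 1, 1 member (Cox6a2) and 114 genes in all were called, 53 members were negative and their median was -0.05.

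**Figure D5:**
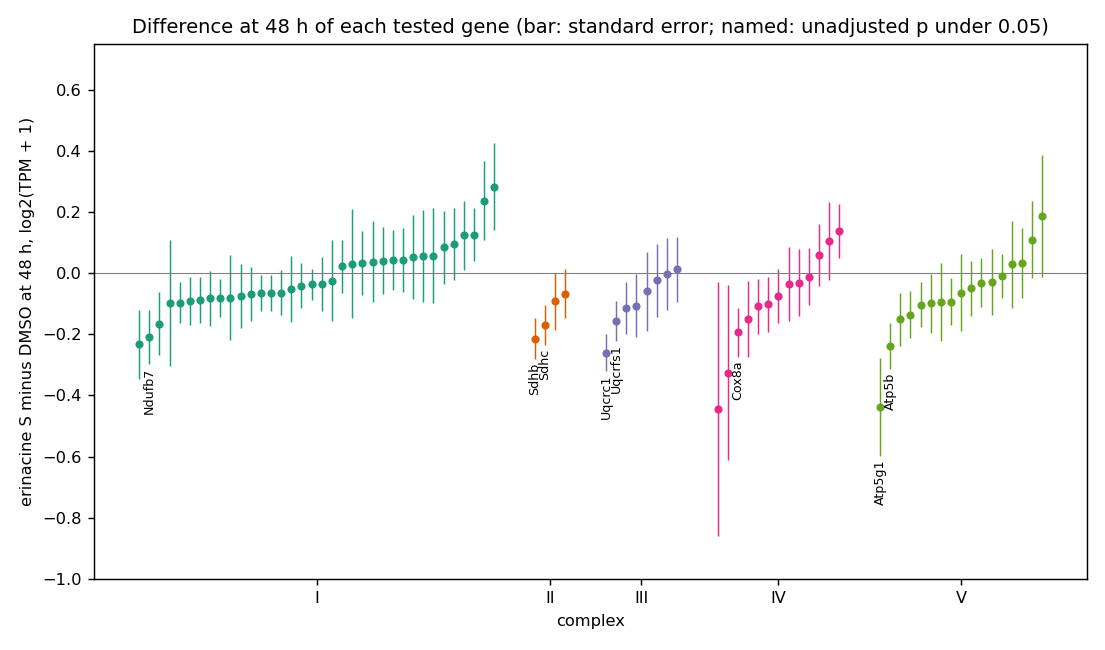
Difference between erinacine S and DMSO at 48 h for each of the 78 tested members, on the log2(TPM + 1) scale, ordered within complexes; bars are standard errors, and members with an unadjusted p under 0.05 are named. Complexes II and III lie mostly below 0 and complex I on both sides, and no member passed the adjusted threshold.

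The negative values were unevenly spread over the complexes. In complex I, 20 of 36 members were negative, with a median of -0.04. In complex II 4 of 4 were negative, in complex III 7 of 8, in complex IV 10 of 13 and in complex V 13 of 17. The medians of complexes II, III, IV and V were -0.13, -0.08, -0.08 and -0.06. The summed TPM of complex II was 577, 578 and 570 in DMSO at 48 h and 537, 498 and 527 in erinacine S, and that of complex V was 4982, 5176 and 5077 against 4701, 4532 and 4780. Complex I sums overlapped, at 3870, 3953 and 3927 in DMSO and 3878, 3855 and 3935 in erinacine S. Over all members, the sums were 14070, 14463 and 14284 TPM in DMSO and 13566, 13296 and 13834 TPM in erinacine S, without overlap. These sums are weighted by the abundant members and carry no test.

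Uqcrc1 had the smallest p of the 78 members. Its 48 h values given above, 139 to 149 TPM in DMSO and 116 to 124 TPM in erinacine S, did not overlap, and the difference was -0.26 (SE 0.06, unadjusted p = 0.00115, adjusted p = 0.177). Atp5b (ENSMUSG00000025393, chromosome 10, 128083273 to 128090391) was at 1408, 1418 and 1404 TPM in DMSO at 48 h and at 1240, 1143 and 1204 TPM in erinacine S, a difference of -0.24 (SE 0.07, adjusted p = 0.332). The DMSO libraries of Atp5b were close together and all above the treated ones. At 16 h, Atp5b was at 1191, 1216 and 1310 TPM in DMSO and at 1104, 1247 and 1275 TPM in erinacine S, so the groups overlapped.

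Sdhb was at 246, 230 and 239 TPM in DMSO at 48 h and at 218, 194 and 206 TPM in erinacine S, a difference of -0.21 (SE 0.07, adjusted p = 0.348). Atp5g1 had the largest difference of the 8, -0.44 (SE 0.16, adjusted p = 0.439). The remaining 4 were Sdhc (-0.17), Cox8a (-0.19), Ndufb7 (-0.21) and Uqcrfs1 (-0.16), with adjusted p between 0.484 and 0.514. The 8 came from all 5 complexes, none met the threshold, and their number was near the background share given above.

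Cox6a2 (ENSMUSG00000030785, chromosome 7, 128205435 to 128206387) depended on a library. It was at 4.90, 4.75 and 5.47 TPM in DMSO at 48 h and at 10.1, 1.25 and 2.47 TPM in erinacine S. Replicate 1 was above every other library of the series and the other two were below every other library. The difference was -0.44 (adjusted p = 0.79) with all libraries. Without erinacine S 48 h replicate 1 it was -1.11 (adjusted p = 0.0179), the only member called in that fit. Without replicate 2 it was 0.04.

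Markers of some other cells were lower in erinacine S at 48 h in the same libraries. Summed microglia markers were 22.8 to 31.5 TPM in DMSO and 1.60 to 13.3 TPM in erinacine S, and 6 of 6 tested were negative, with C1qc, part of the complement initiator C1q, called lower (adjusted p = 0.0413). That call was lost with the replicate block within each time (adjusted p = 0.133) and in 5 of the 6 fits that left out a library, the exception being the fit without erinacine S 48 h replicate 1. None of the 9 microglia genes was at 0.0001 TPM in all libraries. Summed dividing-cell markers were 169 to 176 TPM in DMSO and 54.4 to 166 TPM in erinacine S, and those of the oligodendrocyte lineage 201 to 233 TPM and 66.5 to 187 TPM. Radial glia markers (735 to 781 TPM and 257 to 812 TPM) and astrocyte markers (109 to 125 TPM and 49.3 to 132 TPM) overlapped. Replicate 1 of erinacine S was the lowest library for each of these 5 sums. The other erinacine S libraries held 10.4 and 13.3 TPM of microglia markers, 166 and 159.9 TPM of dividing-cell markers, and 174 and 187 TPM of oligodendrocyte lineage markers, still below DMSO. Their radial glia sums (783 and 812 TPM) and astrocyte sums (130.2 and 132 TPM) were above DMSO. Summed neuron markers overlapped, at 5680 to 6021 TPM and 5687 to 6165 TPM. The part of these shifts in the subunit values was not tested.

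At 16 h, no member differed between erinacine S and DMSO by limma's test, and none of the 15623 genes passed (0%). A total of 1 member (1.28%) had an unadjusted p under 0.05, where 201 of all genes did (1.29%). It was Ndufb2, an accessory subunit of complex I, at 22.4, 28.5 and 28.0 TPM in DMSO and 18.5, 23.3 and 20.8 TPM in erinacine S, a difference of -0.32 (SE 0.14, unadjusted p = 0.0388, adjusted p = 1.00). The groups overlapped in every tested member, while 2.62% of all genes were without overlap higher and 1.56% lower. The median over members was -0.01, and its sign rested on single libraries. Without DMSO 16 h replicate 2 it was -0.08, with 66 of 78 members negative; without DMSO 16 h replicate 3 it was 0.07, with 65 positive; and without erinacine S 16 h replicate 1 it was 0.04, with 53 positive.

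Whether the change with time differed between the media was tested by the interaction of erinacine S and time. No member passed, and none of all 15623 genes did (0%); 2 members (2.56%) had an unadjusted p under 0.05, near the share of all tested genes (432 genes, 2.77%). These were Uqcrc1, at -0.23 (SE 0.09, unadjusted p = 0.0198), and Atp5g1, at -0.60 (SE 0.22, unadjusted p = 0.0208), each with an adjusted p of 1.00. The next was Ndufs3, at 0.39 (unadjusted p = 0.0719). The rises called in DMSO and not in erinacine S are therefore not shown to differ between the media. The median interaction over members was -0.05, and 50 of 78 were negative. Without DMSO 16 h replicate 2 the median turned to 0.04, with 46 of 78 positive, and without DMSO 16 h replicate 3 it was -0.13, with 67 negative. The 4 comparisons share libraries, so these signs are not independent of the values above.

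Parts of the respiratory chain outside the name pattern were followed in a list of 6 genes: Ndufab1, Cyc1, Cycs, Usmg5, Atpif1 and 2010107E04Rik. Cyc1, the cytochrome c1 of complex III, was at 196, 217 and 191 TPM in DMSO at 16 h and at 235, 225 and 235 TPM at 48 h, a rise of 0.20 (adjusted p = 0.0312) whose call was lost in 5 of the 6 fits that left out a library. It was at 205, 185 and 206 TPM in erinacine S at 48 h, below all 3 DMSO libraries, a difference of -0.22 that did not pass (adjusted p = 0.291). With library weights the difference was -0.29 and passed (adjusted p = 0.00167). The other 5 did not pass in any comparison; with the replicate block within each time, 1 of them fell in DMSO.

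By limma's test no mitochondrially encoded subunit was called higher with time. With library weights, 1 of 13 was, in erinacine S. Of 13 genes, 12 had a negative value in DMSO, with a median of -0.18, and 12 in erinacine S, with a median of -0.12. mt-Atp8, a complex V subunit, fell by 0.52 in DMSO (adjusted p = 0.011) and by 0.52 in erinacine S (adjusted p = 0.0116), and mt-Nd4l, a complex I subunit, fell by 0.42 in erinacine S (adjusted p = 0.0441), a call lost under median-ratio scaling. The mt-Nd4l call was also lost in 4 of the 6 fits that left out a library, with values from -0.52 to -0.24, the smallest without erinacine S 48 h replicate 1. The mt-Atp8 call in DMSO was lost without DMSO 48 h replicate 3 (-0.45, adjusted p = 0.0515). The falls made up 7.69% of the 13 genes in DMSO and 15.4% in erinacine S. The shares of all tested genes called lower were 16.6% and 15.5%, so the falls were no more frequent than the background. Each of these falls lost its call without the filter on low values. The nuclear members that passed, which belong to the same complexes, rose. At 16 h the sum over the 13 was 71112, 68269 and 72953 TPM in DMSO and 68234, 71893 and 69030 TPM in erinacine S. At 48 h it was 62268, 66049 and 55093 TPM in DMSO and 48140, 67868 and 67537 TPM in erinacine S. Replicates 2 and 3 of erinacine S at 48 h thus lay just below its 16 h values, and replicate 1 far below. Since TPM are shares of a library, leaving out the mitochondrially encoded genes was tried as another scaling. With it, 14 members were called in DMSO and 6 in erinacine S, against 5229 and 4913 of all 15588 genes.

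Among genes that feed the chain, those that passed the test without library weights rose with time. Of 16 genes of pyruvate dehydrogenase and the citric acid cycle, 6 rose in DMSO (37.5%), among them Cs, Idh3a and Pdha1. In erinacine S 3 rose (18.75%), among them Idh3a and Cs. The shares of all tested genes called higher were 16.1% and 15.1%, so the erinacine S share was near the background. With the replicate block within each time the counts were 5 and 2. With library weights, 7 rose and none fell in DMSO, and 3 rose and 4 fell in erinacine S. Over all 15623 genes, the weighted fit called 3139 higher and 3475 lower in DMSO, and 4285 and 5053 in erinacine S. Cs, citrate synthase, was at 196, 181 and 191 TPM in DMSO at 16 h and at 247, 261 and 255 TPM at 48 h, without overlap. It rose by 0.42 in DMSO (adjusted p = 0.000568) and 0.31 in erinacine S (adjusted p = 0.00401). At 48 h all 16 were negative in erinacine S against DMSO, with a median of -0.12, and none passed; Mdh2, malate dehydrogenase, was at -0.26 (adjusted p = 0.216). With library weights, which gave most influence to erinacine S 48 h replicate 2, 9 of the 16 were called lower there. Over all 15623 genes, that fit called 913 lower and 686 higher in the same comparison.

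A list of 7 genes held carriers that exchange ATP, ADP and phosphate across the membranes, and the enzyme gene Ckmt1. Of the 7, 6 rose in DMSO (85.7%) and 4 in erinacine S (57.1%), against 16.1% and 15.1% of all tested genes. Ckmt1, the mitochondrial creatine kinase, rose by 0.65 in DMSO (adjusted p = 0.00114) and 0.84 in erinacine S (adjusted p = 0.000294). Slc25a4, an ADP/ATP carrier, rose by 0.29 in DMSO (adjusted p = 0.00348), and Vdac1, the outer membrane pore, by 0.30 (adjusted p = 0.0059). At 48 h Ckmt1 was the gene of the 7 with a positive difference between erinacine S and DMSO (0.33, adjusted p = 0.368). With library weights, 1 of the 7 was called higher and 3 lower in that comparison, against 686 and 913 of all 15623 genes.

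Among 14 tested regulators of mitochondrial biogenesis, Ppargc1a, Ppargc1b and Esrra rose in DMSO (21.4%, against 16.1% of all tested genes). In erinacine S 1 rose (7.14%) and 3 fell (21.4%), against 15.1% and 15.5% of all tested genes. Ppargc1a encodes PGC-1alpha, a coactivator of respiratory genes, and was at 6.74, 6.75 and 5.52 TPM in DMSO at 16 h and at 20.6, 17.0 and 17.9 TPM at 48 h. In erinacine S it was at 5.37, 5.38 and 5.41 TPM and then at 17.8, 11.2 and 10.4 TPM. The rises were 1.41 (SE 0.17, adjusted p = 0.00012) and 1.11 (SE 0.17, adjusted p = 0.000625), larger than those of any member. At 48 h its difference between erinacine S and DMSO was -0.50 and did not pass (adjusted p = 0.373), with replicate 1 of erinacine S inside the range of DMSO. Without that library the difference was -0.72 and passed (adjusted p = 0.0156), and with library weights it was -0.67 and passed. With those weights, 5 of the 14 regulators were called lower and none higher at 48 h, against 913 and 686 of all 15623 genes. In erinacine S, Esrrg, Gabpa and Tfam fell with time, calls that were lost in 4, 4 and 5 of the 6 fits that left out a library; Gabpa encodes the factor whose word was searched above, and Tfam a factor of mitochondrial DNA. With the replicate block within each time, 3 regulators rose and 1 fell in DMSO, and 1 rose and 2 fell in erinacine S. Nrf1 did not pass in any comparison.

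Assembly factors build the complexes and leave them. Of 15 complex I assembly genes, 1 rose and 3 fell in DMSO, and likewise in erinacine S. Foxred1 fell by 0.27 in DMSO (adjusted p = 0.014), a call lost without DMSO 48 h replicate 2, and Timmdc1 fell by 0.27 in erinacine S (adjusted p = 0.0101). Of 31 assembly genes of complexes II to V, 1 rose and 5 fell in DMSO and 2 fell in erinacine S; Surf1, a complex IV assembly factor, fell by 0.28 (adjusted p = 0.00852) and 0.30 (adjusted p = 0.00634). The falls made up 20.0% of the complex I list in each medium, and 16.1% and 6.45% of the list for complexes II to V in DMSO and erinacine S; the shares of all tested genes called lower were 16.6% and 15.5%, so the falls were no more frequent than the background in the second list and near it in the first. Called higher were 16.1% of all tested genes in DMSO and 15.1% in erinacine S. Of 11 genes of coenzyme Q synthesis, 3 rose and 1 fell in DMSO (27.3% and 9.09%), and 1 rose and 2 fell in erinacine S (9.09% and 18.2%). Coq7, a hydroxylase of that pathway, fell by 0.36 in erinacine S (adjusted p = 0.00814), and its difference from DMSO at 48 h was -0.34 (adjusted p = 0.216). With the replicate block within each time, the counts in DMSO were 0 rises and 3 falls for complex I assembly, 1 and 2 for complexes II to V, and 2 and 1 for coenzyme Q. In erinacine S they were 1 and 3, 1 and 2, and 0 and 2. None of these 3 lists had a gene that passed between erinacine S and DMSO at either time; with library weights, 3 genes of complexes II to V assembly were called higher and 2 lower at 48 h, and 3 of coenzyme Q synthesis lower.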

How the data were processed

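Per the labels' protocols, the kit kept strand and sequencing was by Illumina. The submitters' processing notes name bcl2fastq 2.20, Trimmomatic 0.36, FastQC, HISAT2, SAMtools, StringTie 2.1.3 and build GRCm38.p5. The values used are the TPM deposited by the authors for all 12 samples, with 0.0001 TPM as the lowest value; read counts were not used here and depth is unknown, so no counting interval is given. All 12 columns matched a sample.

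Members and gene lists were chosen with earlier results of these data known. Values were taken as log2(TPM + 1), which understates the change of low genes, and genes with a mean of at least 1 TPM were kept. limma 3.58.1 in R 4.3.3 fitted 1 mean per group over the 12 libraries (empirical Bayes with a trend), two-sided, with Benjamini-Hochberg adjustment over all 15623 genes. The script was tested on simulated data. Transcript lengths came from GENCODE M21 (all 84 members matched) and promoters from RefSeq. Per comparison, the named members were up to 6 called rises and 6 called falls, or the 3 smallest p where fewer than 3 were called, besides the highest and lowest of each complex, all isoforms, all members under the filter and, for each other list, up to 2 genes with the smallest p.

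Same-numbered libraries deviated together at 16 h (correlations of 0.480, 0.185 and 0.510 across genes), but at 48 h the correlations were -0.02, 0.107 and -0.19, so the number was used as a block within each time only as an alternative. Other alternatives were the pseudocount, the filter, the scaling, library weights, only the libraries compared, and leaving out each library. A few single-gene results are not reported here.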

Additional observations from a re-analysis of the deposited data

How the results depend on the processing

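The summed and median levels, the counts of called members and the printed changes were recomputed under each alternative. Counts of 0 members for erinacine S against DMSO at 16 h and for the interaction held in all of them. For erinacine S against DMSO at 48 h the count was 13 with library weights and 0 to 1 when a library was left out, and the median of the members ranged from -0.073 to -0.030, the smallest being without DMSO 48 h replicate 2 and without erinacine S 48 h replicate 2. For 48 h against 16 h in DMSO the count was 24 with library weights (22 higher, 2 lower) and 9 to 24 when a library was left out, and without the filter on low values 1 of 10 calls was a fall, of Ndufa4l2. For erinacine S it was 3 without the filter, 32 with library weights (21 higher, 11 lower) and 2 to 10 when a library was left out. Without the filter, 4928 of all 32326 genes were called with time in DMSO and 4548 in erinacine S. The fit with library weights called 6614 of all 15623 genes with time in DMSO and 9338 in erinacine S, in both media a larger share than of the members. With TPM rescaled without mitochondrially encoded genes, the mean summed level was 14019 TPM in erinacine S at 16 h, 15284 in DMSO at 48 h and 14522 in erinacine S at 48 h, and the order of the groups did not change. The cause of these differences was not tested.

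With the replicate number as a block within each time, the counts were 19 in DMSO and 14 in erinacine S. As a block across both times they were 17 and 9. Over all 15623 genes, the first fit called 5360 and 5145, and the second 5173 and 4845. With the pairing within each time, Coq8b in erinacine S lost its call with time and Ndufa12 gained one. When a library was left out, the median of the members ran from -0.077 to 0.067 for erinacine S against DMSO at 16 h, from -0.13 to 0.041 for the interaction, from 0.011 to 0.18 for time in DMSO and from 0.0085 to 0.097 for time in erinacine S, so the first 2 changed sign. Among single genes, 2 printed values turned, neither of them called: Cox6a2 for erinacine S against DMSO at 48 h (-1.11 to 0.044 when a library was left out, the positive value without erinacine S 48 h replicate 2), and Atp5g1 for 48 h against 16 h in erinacine S (0.076 with library weights, -0.19 to 0.064 when a library was left out, positive without replicate 3 of either time). Of 1337 recomputed values of single genes, 1163 stayed on their side of the threshold.

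The 3 libraries per group and the unknown depth limit what differences can be detected; the members varied most between libraries at 16 h.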
